A study of Homo sapiens with 6 samples.

Results

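The YAP-TEAD arm of the Hippo pathway and its target genes were examined in AsPC-1, an established line of pancreatic cancer cells of human origin. The set held 10 of the 58735 genes in the table and was chosen by name from general knowledge of the pathway: the kinases LATS1 and LATS2, the coactivators YAP1 and WWTR1, the transcription factors TEAD1 and TEAD4, and the target genes CYR61, CTGF, ANKRD1 and AMOTL2. The rule names genes and uses no measured value, but these genes and the lists below were chosen with earlier results of these data known. RNA sequencing was performed on 3 libraries of cells infected with an empty lentivirus, labelled as wild-type (Vector), and on 3 libraries of cells infected with a lentivirus that carried MMP28, a secreted matrix metalloproteinase (OE-MMP28). Per the methods, the lentiviral constructs carried a GFP and puromycin resistance cassette and infected cells were selected with puromycin, and whether the selected cells were clonal was not stated. The samples of each group were described as triplicates, without a statement that they came from separate cultures, so the p-values measure the spread between these samples, which may be technical.

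The Hippo pathway is a kinase cascade that restrains growth. The kinases STK3 and STK4, with the scaffold SAV1, activate LATS1 and LATS2, which with their MOB1 cofactors phosphorylate YAP and TAZ and thereby keep these coactivators out of the nucleus. Unphosphorylated YAP and TAZ enter the nucleus, bind TEAD transcription factors on DNA and raise the transcription of genes such as CYR61 and CTGF, and they are known for their activity in pancreatic ductal adenocarcinoma. Much of this regulation acts on proteins, whereas the present values are of RNA alone.

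Total counts ranged from 13633249 to 16691458 per library. MMP28 was measured at 5.17 to 9.11 FPKM (fragments per kilobase of a gene, relative to the library size) in the Vector libraries and at 13.1 to 15.1 FPKM in the OE-MMP28 libraries, apart in the direction of the labels. Mitochondrial genes took 11.9 to 14.8% of the counts in the Vector libraries and 8.80 to 11.9% in the OE-MMP28 libraries. All 6 ductal epithelial markers examined (KRT7, KRT8, KRT18, KRT19, EPCAM and CDH1) were detected, and their summed level was 2579 to 3520 FPKM in the Vector group and 3517 to 4305 FPKM in the OE-MMP28 group. Nearly all of that level came from KRT8, KRT18, KRT19 and EPCAM, while KRT7 was low, at 0.597 to 2.22 FPKM over all libraries. Of the 6 markers KRT19 was higher in the OE-MMP28 group, with a log2 fold change of 0.71 (edgeR adjusted p = 0.00175), and CDH1 lower, with -0.59 (adjusted p = 0.0113). The 5 macrophage and leukocyte markers summed to 1.02 to 1.18 FPKM in the Vector libraries and 0.711 to 0.932 FPKM in the OE-MMP28 libraries, with PTPRC and CD163 at 1 count or 0 in every library. The 6 fibroblast markers summed to 33.9 to 40.9 FPKM and 39.3 to 57.0 FPKM, nearly all of it from LUM, while COL1A2 and COL3A1 had 3 counts or fewer in every library. The 4 endothelial markers summed to 0.0441 to 0.170 FPKM and 0.179 to 0.293 FPKM, with KDR at 0 in every library and PECAM1 higher in the OE-MMP28 group at 64 counts in all against 8. For PECAM1 this was a ratio of 7.14 with a 95% interval of 3.41 to 17.2 that covers counting error only. PECAM1 passed the filter on low counts through the OE-MMP28 libraries alone, so its call is not used as support. The part of these markers in the results below was not tested.

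Of the 10 pathway genes, CYR61, WWTR1 and AMOTL2 rose in OE-MMP28 cells, by 1.60-fold, 1.70-fold and 1.56-fold, and none fell. YAP1 was 1.32-fold higher without passing the test, TEAD1, TEAD4, LATS1, LATS2 and CTGF did not pass it either, and ANKRD1 had too few reads to be tested. The 3 genes that rose differed in their surroundings. CYR61 stood apart from the genes around it on chromosome 1, whereas WWTR1 and AMOTL2 lay in stretches of chromosome 3 whose median gene was higher by a like amount. The best known target beside CYR61, CTGF, had a mean of 22.0 FPKM in the Vector group and 18.9 FPKM in the OE-MMP28 group.

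The 3 genes called at an adjusted p under 0.05 were 33.3% of the 9 tested, and all 3 were higher. Across all 15319 genes tested, 11.7% were called higher and 11.6% lower, or 23.4% in either direction. In 5 of the 9 genes (CYR61, WWTR1, AMOTL2, YAP1 and LATS1) the scaled values of the groups did not overlap, which held for 38.1% of all genes tested. No pathway gene of the 9 combined an unadjusted p under 0.05 with a log2 change over 1 in size, as against 8.5% of all genes tested. The median log2 fold change of the 9 genes was 0.32, beside 0.014 for all genes tested.

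**Figure D1:**
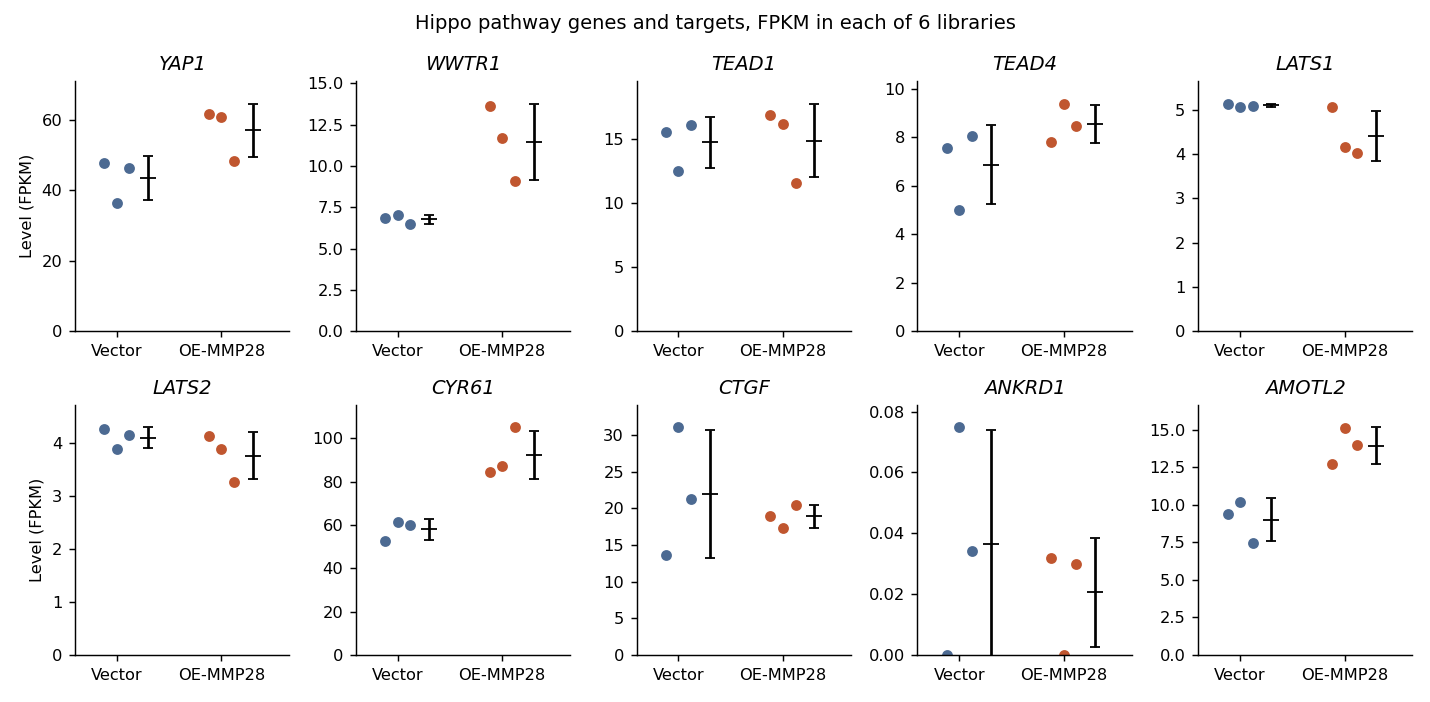
Level in FPKM (y axis, from 0, with its own scale for each gene) of the 10 pathway genes in the 3 Vector libraries (blue points) and the 3 OE-MMP28 libraries (orange points), with the mean and SD of each group as a black bar. The groups are apart for CYR61, WWTR1, AMOTL2, YAP1 and LATS1, and ANKRD1 is near 0 in every library.

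The order of the levels was much the same in both groups. In Vector cells CYR61 was the most abundant transcript per length at 58.0 ± 4.71 FPKM (SD, n = 3), followed by YAP1 at 43.5 ± 6.15 FPKM (SD, n = 3). CTGF, at 22.0 ± 8.73 FPKM (SD, n = 3), and TEAD1, at 14.7 ± 1.95 FPKM (SD, n = 3), overlapped in their ranges, as did AMOTL2, TEAD4 and WWTR1 between neighbours in the order. LATS1, LATS2 and ANKRD1 were the lowest, each without overlap with the next. In OE-MMP28 cells WWTR1 stood above TEAD4 in the order, although their ranges overlapped, and the ranges of LATS1 and LATS2 overlapped as well.

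LATS1 and LATS2 encode the kinases that phosphorylate YAP and TAZ. LATS1 (ENSG00000131023, chromosome 6, 149658153 to 149718256, minus strand, build GRCh38) was measured at 5.13, 5.07 and 5.08 FPKM in Vector replicates 1, 2 and 3 and at 5.06, 4.16 and 4.02 FPKM in OE-MMP28 replicates 1, 2 and 3. All 3 OE-MMP28 values lay below the Vector values, the first of them by little. The groups differed by -0.20 (SE 0.16) in log2 fold change, OE-MMP28 minus Vector, and the edgeR quasi-likelihood test gave an adjusted p of 0.387 (Benjamini-Hochberg). Its 37 neighbours, the other genes tested within 5 Mb on either side of its start, had a median log2 fold change of 0.18. Relative to them it was -0.37 on the log2 scale (adjusted p = 0.114) in the edgeR fit that took the median of the neighbours as a fixed offset for each gene. LATS2 (ENSG00000150457, chromosome 13, 20973032 to 21061547, minus strand) was measured at 4.26, 3.89 and 4.16 FPKM in the Vector libraries and 4.14, 3.88 and 3.27 FPKM in the OE-MMP28 libraries. The groups overlapped, with a log2 fold change of -0.12 (SE 0.17, edgeR adjusted p = 0.666).

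YAP1 and WWTR1 encode the coactivators YAP and TAZ, which lack a DNA-binding domain of their own. YAP1 (ENSG00000137693, chromosome 11, 102110461 to 102233423, plus strand) was measured at 47.7, 36.5 and 46.5 FPKM in the Vector libraries and at 61.8, 61.0 and 48.3 FPKM in the OE-MMP28 libraries. Every OE-MMP28 value exceeded every Vector value, but OE-MMP28 replicate 3 was close to Vector replicates 1 and 3. YAP1 had a log2 fold change of 0.40 (SE 0.15, edgeR adjusted p = 0.0657). It was not called, nor was it in 15 of the 17 alternative fits. Without Vector replicate 1 the log2 fold change was 0.47 (adjusted p = 0.0488) and without OE-MMP28 replicate 3 it was 0.50 (adjusted p = 0.0403). The adjusted p over all 17 alternative fits ranged from 0.0403 to 0.739. The highest came with the median of the neighbours as offset, where the log2 fold change was -0.092. In such bulk samples more RNA per cell and more cells of a kind that expresses a gene cannot be told apart.

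WWTR1 rose in OE-MMP28 cells. The gene (ENSG00000018408, chromosome 3, 149517235 to 149736714, minus strand) was measured at 6.83, 7.02 and 6.46 FPKM in the Vector libraries and at 13.7, 11.7 and 9.06 FPKM in the OE-MMP28 libraries. The Vector values were close together, and the OE-MMP28 values were all higher but spread widely, with replicate 3 the lowest. This was a log2 fold change of 0.77 (SE 0.16, edgeR adjusted p = 0.00191). Of its exon bases 9.45% overlapped WWTR1-AS1 on the other strand, which had 0 to 15 counts per library. Whether the counting used the strand was not stated, so reads in that overlap cannot be assigned to either gene with certainty.

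TEAD1 and TEAD4 encode transcription factors that carry YAP and TAZ to DNA. TEAD1 (ENSG00000187079, chromosome 11, 12674591 to 12944483, plus strand) was measured at 15.5, 12.5 and 16.1 FPKM in the Vector libraries and at 16.9, 16.1 and 11.6 FPKM in the OE-MMP28 libraries. The groups overlapped fully. Its log2 fold change of 0.023 (SE 0.16, edgeR adjusted p = 0.940) turned to -0.026 with upper-quartile scaling. TEAD4 (ENSG00000197905, chromosome 12, 2959330 to 3040673, plus strand) was measured at 7.54, 5.02 and 8.06 FPKM in the Vector libraries and at 7.79, 9.38 and 8.48 FPKM in the OE-MMP28 libraries. Vector replicate 2 lay below the other libraries, which overlapped. The log2 fold change of 0.32 (SE 0.20) had an edgeR adjusted p of 0.247 and was 0.14 without Vector replicate 2.

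CYR61, also named CCN1, encodes a secreted matricellular protein that binds integrins and is a widely used readout of YAP and TAZ activity. CYR61 (ENSG00000142871, chromosome 1, 85580761 to 85583962, plus strand) was measured at 52.6, 61.5 and 59.9 FPKM in the Vector libraries and at 84.5, 87.4 and 105 FPKM in the OE-MMP28 libraries. The groups were well apart. The OE-MMP28 mean was 92.3 ± 11.1 FPKM (SD, n = 3). CYR61 rose by a log2 fold change of 0.68 (SE 0.15, edgeR adjusted p = 0.00264). The adjusted p stayed under 0.05 in all 17 alternative fits, between 0.000211 and 0.0209.

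CTGF, also named CCN2, encodes a matricellular protein of the same family. CTGF (ENSG00000118523, chromosome 6, 131948176 to 131951373, minus strand) was measured at 13.6, 31.1 and 21.3 FPKM in the Vector libraries and at 19.0, 17.3 and 20.5 FPKM in the OE-MMP28 libraries. The Vector libraries spread more widely than the OE-MMP28 libraries and enclosed them. OE-MMP28 minus Vector came to -0.20 on the log2 scale (SE 0.21, edgeR adjusted p = 0.531). Its direction rested on Vector replicate 2, without which the log2 fold change was 0.13 (adjusted p = 0.703), and the adjusted p over the 17 alternatives ranged from 0.0782 to 0.764.

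AMOTL2, a member of the angiomotin family, binds YAP at cell junctions and restrains it, and is itself induced by YAP. AMOTL2 (ENSG00000114019, chromosome 3, 134355874 to 134375479, minus strand) was measured at 9.40, 10.2 and 7.45 FPKM in the Vector libraries and at 12.7, 15.1 and 14.0 FPKM in the OE-MMP28 libraries. The groups did not overlap. Means were 9.01 ± 1.40 FPKM in Vector cells and 13.9 ± 1.20 FPKM in OE-MMP28 cells (SD, n = 3 each). AMOTL2 rose by a log2 fold change of 0.64 (SE 0.16, edgeR adjusted p = 0.00660). The adjusted p was 0.0709 without Vector replicate 3 and 0.0639 without OE-MMP28 replicate 2, with log2 fold changes of 0.52 and 0.56, and it ranged from 0.00184 to 0.913 over the 17 alternatives.

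ANKRD1, a nuclear ankyrin repeat protein best known from muscle and a frequent YAP target, was almost without reads. ANKRD1 (ENSG00000148677, chromosome 10, 90912096 to 90921276, minus strand) had 0, 2 and 1 counts in the Vector libraries and 1, 0 and 1 counts in the OE-MMP28 libraries. With 5 counts in all, each library was within the limit that a count of 0 allows, 3 counts or 0.180 to 0.220 CPM (counts scaled to the library total), and a difference was not detectable at this depth.

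The promoters of the target genes and of YAP1 are shown because TEAD proteins are the known shared regulator of the targets. RefSeq promoter windows (GRCh38.p14) of 300 bases, 250 before and 50 after a start, were found for 7 of the 10 genes in 10 windows. Windows of CYR61, TEAD1 and TEAD4 were not analysed here. Capitals mark the letters GGAATG, the core of the element that TEAD proteins recognise, or CATTCC, the same letters on the other strand. Each sequence reads 5′ to 3′ on the strand of its gene.
CTGF, chr6:131951453-131951552, minus strand: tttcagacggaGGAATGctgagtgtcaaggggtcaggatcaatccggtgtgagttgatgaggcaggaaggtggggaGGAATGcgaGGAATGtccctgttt
ANKRD1, chr10:90921200-90921319, minus strand: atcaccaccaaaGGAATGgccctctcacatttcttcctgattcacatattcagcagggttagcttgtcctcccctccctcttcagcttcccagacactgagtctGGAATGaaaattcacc
AMOTL2, chr3:134374488-134374547, minus strand: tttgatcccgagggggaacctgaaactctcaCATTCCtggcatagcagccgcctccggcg
YAP1, chr11:102110267-102110306, plus strand: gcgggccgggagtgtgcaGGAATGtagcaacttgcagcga

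The 3 matches of CTGF begin at -169, -104 and -95, counted back from -1, the base before the start, and 3 or more were found in 0.128% of all 35116 windows of the same length. ANKRD1 had 2 matches, at -220 and -128, and 2 or more were found in 1.37% of windows. AMOTL2 had 1 match, on the other strand, in 1 of its 2 windows, YAP1 had 1, and LATS2 had 1 after its start. At least 1 match was found in 14.0% of all windows. No match was found in the 2 windows of WWTR1 or the 2 windows of LATS1, which says only that these letters were not in those bases. Set beside the levels, CTGF, with 3 matches, did not pass the test, ANKRD1, with 2, could not be tested, and AMOTL2, with 1, rose. WWTR1 rose without a match, while YAP1 and LATS2, with 1 each, and LATS1, without a match, did not pass the test. Neither AMOTL2 nor WWTR1 was called relative to its neighbours. A match is a description of the sequence and not evidence of binding.

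CYR61 and CTGF were also compared within each library. The FPKM ratio of CYR61 to CTGF was 3.86, 1.98 and 2.82 in the Vector libraries and 4.44, 5.05 and 5.13 in the OE-MMP28 libraries. Every OE-MMP28 ratio exceeded every Vector ratio, and the log2 ratio was higher by 0.81 in the OE-MMP28 group. The exact two-sided permutation test gave p = 0.1, the smallest that 3 against 3 libraries allow, and 0.4 after Benjamini-Hochberg adjustment over the 4 pairs compared. The FPKM ratio of YAP1 to WWTR1 was 6.98, 5.20 and 7.19 in the Vector libraries and 4.53, 5.22 and 5.33 in the OE-MMP28 libraries. These ranges overlapped, with a log2 difference of -0.35 and an exact permutation p of 0.3 (adjusted 0.4). The log2 ratio of TEAD1 to TEAD4 differed by -0.34 (exact permutation p = 0.3, adjusted 0.4) and that of LATS1 to LATS2 by -0.085 (exact permutation p = 0.6, adjusted 0.6), both with overlapping groups.

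The surroundings of the genes that rose were then compared. WWTR1 and AMOTL2 start 15.2 Mb apart on chromosome 3. Between them 57 genes were tested, with a median log2 fold change of 0.70, and 34 of these were called higher and 0 lower, whereas the median over all 836 genes tested on chromosome 3 was 0.22. Of the 32 neighbours of WWTR1 within 5 Mb, 15 were called higher and 0 lower, and their median log2 fold change was 0.60. Among the 50 neighbours of AMOTL2, 31 were called higher and 0 lower, with a median of 0.68, close to the 0.64 of AMOTL2 itself. Such local medians were taken for 15299 genes, and 2.07% of them lay above that of WWTR1 and 0.333% above that of AMOTL2.

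The nearest protein-coding genes show this singly. Before WWTR1 on the chromosome, TM4SF4 had a log2 fold change of 1.87 (edgeR adjusted p = 5.04e-05), TM4SF1 of 0.40 (adjusted p = 0.0565) and TM4SF18 of 1.15 (adjusted p = 5.57e-05). These encode membrane proteins of the L6 tetraspan family. After it, COMMD2 had 0.72 (adjusted p = 0.00317), RNF13 0.34 (adjusted p = 0.126) and PFN2, a profilin that binds actin, 0.62 (adjusted p = 0.0126). Around AMOTL2, the receptor gene RYK had 0.53 (adjusted p = 0.0154), SRPRB 1.15 (adjusted p = 0.000101), ANAPC13 0.91 (adjusted p = 0.000834), CEP63 0.62 (adjusted p = 0.0215) and PPP2R3A 0.85 (adjusted p = 0.0448), all higher, while RAB6B had 0.38 with an adjusted p of 0.604. The genes next to CYR61 gave another picture. DDAH1 had a log2 fold change of 0.34 (edgeR adjusted p = 0.106), BCL10 of 0.011 (adjusted p = 0.970), C1orf52 of -0.28 (adjusted p = 0.212), ZNHIT6 of -0.034 (adjusted p = 0.908), ODF2L of -0.30 (adjusted p = 0.250) and SH3GLB1 of -0.44 (adjusted p = 0.0372). Of the 40 neighbours of CYR61, 2 were called higher and 5 lower, their median was -0.0075, and 1 had a larger log2 fold change than CYR61. Of the 25 neighbours of YAP1, 9 were called higher and 0 lower. MMP7, MMP1, MMP10, MMP13, CASP4, CASP1 and CARD16 were among the 9, with log2 fold changes of 0.76 to 4.96. The nearest 3 tested protein-coding genes on either side of YAP1 were not called. These were CFAP300 (0.50), CEP126 (0.055), ANGPTL5 (0.68), BIRC3 (0.35), BIRC2 (0.071) and TMEM123 (0.32), with edgeR adjusted p of 0.130 to 0.837. What the called genes add to the YAP1 median was not tested.

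**Figure D2:**
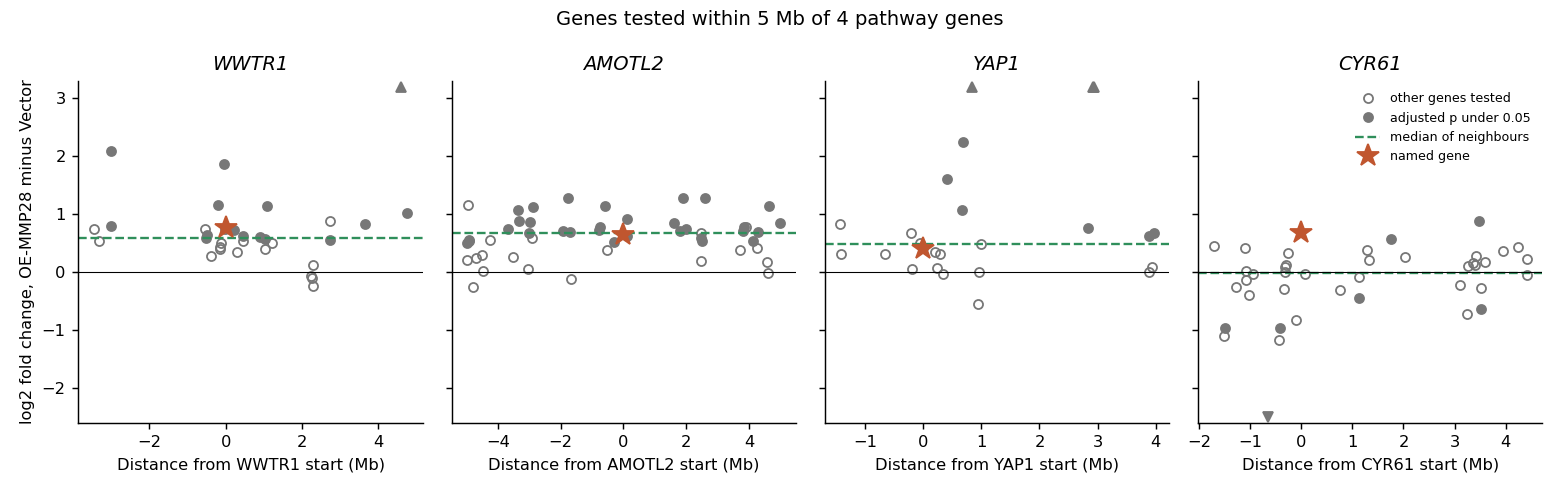
Log2 fold change, OE-MMP28 minus Vector (y axis, 1 scale for all 4 panels), of genes tested within 5 Mb of WWTR1, AMOTL2, YAP1 and CYR61 against distance from the start of the named gene in Mb (x axis). Filled points had an adjusted p under 0.05, the star is the named gene, the dashed line is the median of its neighbours, and triangles mark 4 genes above 3.2 and 1 below -2.5. The stars of WWTR1, AMOTL2 and YAP1 lie near the dashed lines at 0.60, 0.68 and 0.49, and that of CYR61 lies above its line at -0.0075.

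The difference from the neighbours was tested with the local-median offset. CYR61 remained higher, with a log2 fold change of 0.69 and an edgeR adjusted p of 0.00362. WWTR1 had 0.17 (adjusted p = 0.520, within 0.000169 to 0.520 over its 17 alternatives), AMOTL2 -0.036 (adjusted p = 0.913) and YAP1 -0.092 (adjusted p = 0.739), none of them past the threshold. Under the offset 7.41% of all genes were called higher and 8.02% lower. The error of the local median itself was not carried into that fit.

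The same was seen library by library, on log2 CPM relative to the Vector mean. The median of the WWTR1 neighbours was 0.75, 0.60 and 0.50 in OE-MMP28 replicates 1, 2 and 3, against -0.013 to 0.083 in the Vector libraries. Neighbours of AMOTL2 in the OE-MMP28 libraries had medians of 0.83, 0.63 and 0.51, those of YAP1 0.65, 0.53 and 0.21. In all 3 neighbourhoods OE-MMP28 replicate 3 was the lowest of its group and still above every Vector library, and in WWTR1 and YAP1 themselves replicate 3 was the lowest OE-MMP28 library too. AMOTL2 itself went another way, with replicate 1 the lowest OE-MMP28 library although its neighbours were highest there. AMOTL2 minus its neighbours was -0.33, 0.15 and 0.16 in OE-MMP28 replicates 1, 2 and 3. CYR61 exceeded the median of its neighbours by 0.47, 0.72 and 0.99 in the OE-MMP28 libraries and by -0.11 to 0.077 in the Vector libraries, without overlap. For 3 further genes these differences did not overlap between the groups, although their offset fits did not pass the threshold. The share of all genes tested that were apart in this way was not computed, so these values are a description only. LATS1 minus its neighbours was -0.41, -0.48 and -0.44 in the OE-MMP28 libraries and -0.0095 to 0.032 in the Vector libraries. For LATS2 it was -0.077, -0.22 and -0.35 against -0.042 to 0.12, and for TEAD4 it was 0.28, 0.55 and 0.32 against -0.44 to 0.27.

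**Figure D3:**
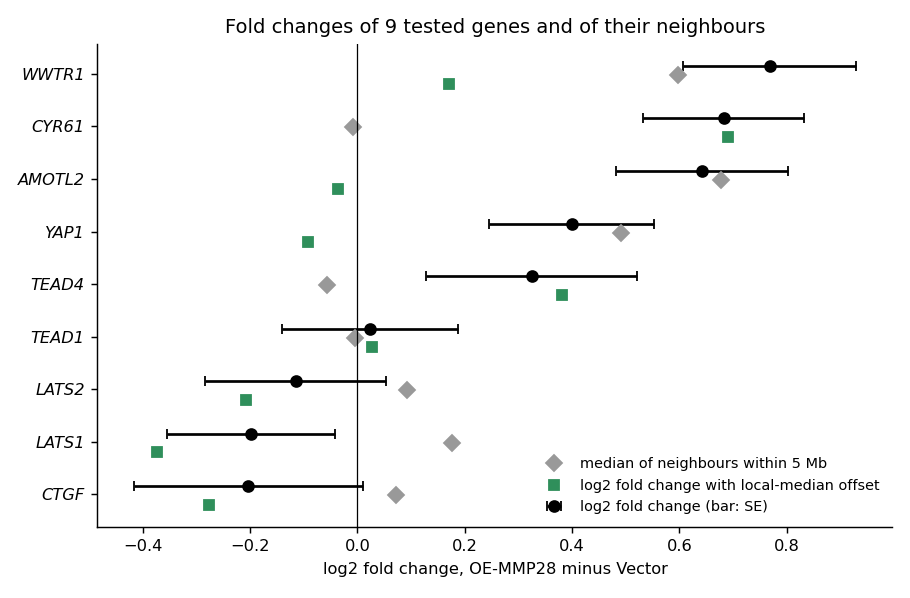
Log2 fold change, OE-MMP28 minus Vector (x axis), of the 9 pathway genes tested (black points, bar ± SE), with the median log2 fold change of their neighbours within 5 Mb (grey diamonds) and the log2 fold change with the local-median offset (green squares). For CYR61 the black point and green square nearly coincide at 0.68 and 0.69, and for AMOTL2 the green square is at -0.036.

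Other genes of the pathway were examined in 3 lists of 51 genes in all, of which 44 were tested. Of these 14 were called higher and 7 lower, or 47.7% of those tested, and the median log2 fold change was 0.11. Of all genes tested 23.4% were called, 11.7% higher and 11.6% lower. FAT4, counted among the 14, passed the filter on low counts through the OE-MMP28 libraries alone. With the local-median offset 12 of the 21 were called in the same direction, 7 higher and 5 lower, and 0 were called only with it. FAT4 is counted among these 7 as well, and in the share of 47.7%. Under that offset 7.41% of all genes were called higher and 8.02% lower.

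Among regulators upstream of LATS1 and LATS2, 8 of 21 tested genes were higher, 3 were lower and 10 did not pass the test, with a median log2 fold change of 0.19. Those called, with FAT4 counted among them, were 52.4% of the genes tested in the list, beside 23.4% of all genes. FAT1, a giant protocadherin of the cell surface, rose from 51.1 ± 2.69 to 94.4 ± 22.7 FPKM (SD, n = 3 in each group), a log2 fold change of 0.90 (SE 0.16, edgeR adjusted p = 0.000646). Its relative FAT4 rose from 0, 4 and 0 counts to 26, 29 and 22 counts, a ratio of 17.2 with a 95% interval of 6.45 to 64.7 that covers counting error only. Other genes of the list that were higher had log2 fold changes of 0.98 for FRMD6 (adjusted p = 0.00286), 0.78 for WWC3 (adjusted p = 0.00131), 0.62 for WWC1 (adjusted p = 0.00539), 0.60 for SAV1 (adjusted p = 0.00993) and 0.48 for NF2 (adjusted p = 0.0371), while WWC2, a paralog of WWC1 and WWC3 named after its value was seen, had 0.17 (adjusted p = 0.478). TNIK, a kinase of the MAP4K group, had 0.72 (adjusted p = 0.00197). The LATS cofactors fell, MOB1A from 33.3 ± 2.63 to 21.1 ± 3.69 FPKM (SD, n = 3 in each group), a log2 fold change of -0.65 (edgeR adjusted p = 0.00441), and MOB1B with -0.58 (adjusted p = 0.0304). These are close paralogs, and how reads that match both were counted was not stated. For MOB1B the groups overlapped, with Vector replicate 2 at 3.58 FPKM and OE-MMP28 replicate 1 at 3.72 FPKM. MAP4K4, a kinase that acts on LATS, had a log2 fold change of -0.60 (adjusted p = 0.0128). With the local-median offset FAT1, WWC1, WWC3 and MOB1B were still called, while SAV1, FRMD6, TNIK, NF2, MOB1A and MAP4K4 were not. FAT4 passed the threshold there too, with the limit that follows. FAT4 was at most 0.111 FPKM in any library. It passed the filter on low counts only through the OE-MMP28 libraries, where it was high, so its call is not used as support. The call of NF2 held in 6 of the 17 alternatives, with an adjusted p of up to 0.180, that of MOB1B in 11, and those of SAV1 and MAP4K4 in 12.

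Of the 8 tested TEAD partners and YAP or TAZ binding proteins, 2 were higher, 2 were lower and 4 did not pass the test, and the median log2 fold change was -0.056. Those called were 50% of the genes tested in the list, beside 23.4% of all genes. VGLL3, a cofactor that competes with YAP for TEAD proteins, fell from 4.93 ± 0.248 to 2.43 ± 0.641 FPKM (SD, n = 3 in each group), a log2 fold change of -1.01 (SE 0.18, edgeR adjusted p = 0.000552). TEAD3 was measured at 5.80, 8.67 and 5.75 FPKM in the Vector libraries and 3.74, 4.64 and 4.55 FPKM in the OE-MMP28 libraries, all lower, with a log2 fold change of -0.63 (adjusted p = 0.0264). Both were also called lower with the local-median offset, where the median rested on only 5 neighbours for VGLL3 and on 157 for TEAD3. AMOTL1, another angiomotin, had a log2 fold change of 0.63 (edgeR adjusted p = 0.0130), and AJUBA, a LIM protein that restrains LATS kinases, had 0.49 (adjusted p = 0.0314), neither called with the offset. Over the 17 alternatives the call held in 11 for TEAD3, 12 for AMOTL1 and 10 for AJUBA. VGLL1 and VGLL2 had no count in any of the 6 libraries.

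Of 15 further target genes tested, 4 were higher, 2 were lower and 9 did not pass the test, with a median log2 fold change of 0.044. Those called were 40% of the genes tested in the list, beside 23.4% of all genes. TGFB2, a ligand of the TGF-beta family, was measured at 1.38, 0.862 and 1.09 FPKM in the Vector libraries and at 6.91, 5.88 and 5.32 FPKM in the OE-MMP28 libraries. The groups were far apart, and the log2 fold change was 2.44 (SE 0.20, edgeR adjusted p = 6.75e-08). FJX1 rose with a log2 fold change of 1.01 (adjusted p = 0.00181), NT5E, the ectonucleotidase CD73, with 0.79 (adjusted p = 0.00118) and GADD45A, a stress response gene, with 0.52 (adjusted p = 0.0420). For GADD45A the groups overlapped, with Vector replicate 2 at 15.6 FPKM and OE-MMP28 replicate 2 at 15.4 FPKM, and the call held in 7 of the 17 alternatives, with an adjusted p of up to 0.169. F3, which encodes tissue factor, the initiator of coagulation, fell from 77.2 ± 6.97 to 37.0 ± 5.10 FPKM (SD, n = 3 in each group), a log2 fold change of -1.05 (SE 0.15, edgeR adjusted p = 5.39e-05). IGFBP3, a secreted binding protein of insulin-like growth factors and the most abundant gene of the list, fell from 444 ± 41.4 to 230 ± 10.3 FPKM (SD, n = 3 in each group), a log2 fold change of -0.93 (edgeR adjusted p = 8.44e-05). Of these 6 genes, all but GADD45A were also called with the local-median offset. Genes listed as targets of the same coactivators moved in both directions. So did genes over the whole table, with 11.7% of those tested called higher and 11.6% lower.

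**Figure D4:**
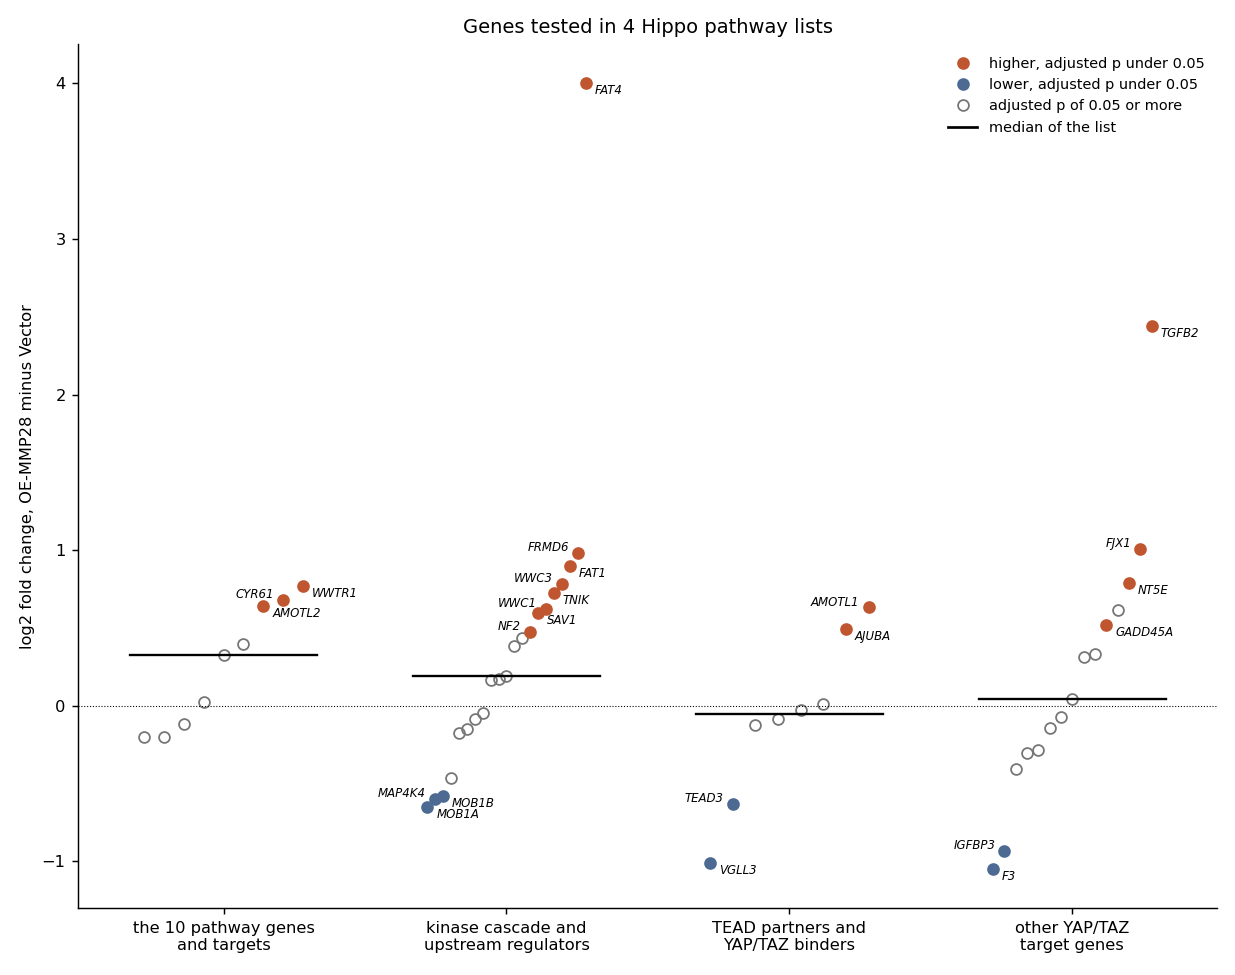
Log2 fold change, OE-MMP28 minus Vector (y axis), of the genes tested among the 10 pathway genes and in the 3 other pathway lists (x axis), each point 1 gene, with genes at an adjusted p under 0.05 coloured and named and the median of each list as a black line. The medians are 0.32, 0.19, -0.056 and 0.044, and each of the 3 other lists holds genes that were higher and genes that were lower.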

How the data were processed

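The authors deposited 1 table with read counts per gene, neither normalized nor pooled, and FPKM values scaled to gene length and library total. HISAT2 2.0.5 and featureCounts 1.5.0-p3 are listed in the submitters' processing notes. The genome build, strand setting and handling of multiply matching reads were not given in the sources used here, so counts of overlapping or paralogous genes may be shared or lost. GENCODE release 29 on GRCh38 holds all 58735 genes of the table under the same identifiers and coordinates, and 58708 under the same symbols. The authors' own group signal, log2 fold changes and p-values in the deposited table were not used.

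Counts were tested with the edgeR 4.0.16 quasi-likelihood test in R 4.3.3 (filterByExpr, minimum count 10, minimum total 15, 15319 genes, TMM, group alone), with Benjamini-Hochberg adjustment over all genes tested. FPKM per library is printed as deposited. Alternatives were upper-quartile and DESeq2 1.42.0 scaling, no filter, the DESeq2 test, limma 3.58.1 voom, limma on log2(FPKM + 1) and log2(FPKM + 0.1) where the mean reached 0.5 FPKM, the replicate number as a block, the table without mitochondrial genes, protein-coding genes only, the local-median offset and leaving out each library. Ratios of paralogs were compared by two-sided exact permutation tests. The fits were tested on simulated data in which 200 genes had been changed. Those changes were larger than the changes of the pathway genes called, and no shift was shared by neighbouring genes. The simulation therefore does not show how the fits perform on changes of the present kind. The members and gene lists were chosen with earlier results of these data known. Named were all 10 genes, list genes with an adjusted p under 0.05 or no count, MMP28, and the nearest 3 tested protein-coding genes on either side of a gene that was called. WWC2, MAP4K5 and the neighbours of YAP1 were named after their values had been seen. Libraries of 1 group differed beyond sampling noise in every pair (chi-square per degree of freedom 15.6 to 31.5), so none was counted as a duplicate. Limits from counts cover counting error only, since PCR copies cannot be told from separate molecules.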

Additional observations from a re-analysis of the deposited data

How the results depend on the processing

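The tests were repeated under 17 alternatives, and the paralog ratios under 8. CYR61, TEAD4, LATS1 and LATS2 kept their direction and their side of the threshold in all 17. The paralog ratios kept their direction in all 8, and their exact tests could not reach the threshold under any of them. Other target genes called higher numbered 3 or 4 and those called lower 2 or 3 over the 17. Fitted with the local-median offset, YAP1 had a log2 fold change of -0.092, WWTR1 of 0.17 and AMOTL2 of -0.036, and 1 of the 9 genes was called higher. TEAD1 turned to -0.026 with upper-quartile scaling and -0.0067 without mitochondrial genes. Leaving out 1 library in turn, the log2 fold change ranged from 0.29 to 0.50 for YAP1, 0.62 to 0.91 for WWTR1, -0.086 to 0.17 for TEAD1 (-0.084 without Vector replicate 2, -0.086 and -0.054 without OE-MMP28 replicates 1 and 2), -0.45 to 0.13 for CTGF and 0.52 to 0.74 for AMOTL2, and the count of the 9 genes called higher ranged from 2 to 4. Upstream regulators called higher numbered 4 with limma at either pseudocount and 4 with the offset (5 to 9 when 1 library was left out, 5 without Vector replicate 3), and those called lower 1 in each of these (1 to 4, with 1 without Vector replicate 1 or OE-MMP28 replicate 3). TEAD partners called higher numbered 0 with limma at either pseudocount and 0 with the offset (0 to 2, with 0 without Vector replicate 3 or OE-MMP28 replicate 2), and those called lower 1 with limma at either pseudocount (1 to 2, with 1 without Vector replicate 2 or any of the OE-MMP28 libraries). The causes were not tested.

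Replicate numbers are shared by the groups. Deviations of libraries with the same number correlated at 0.017, 0.0080 and -0.088 across genes, so the numbers were not taken as pairs. With the replicate number as a block, 3685 genes were called in place of 3579, CYR61 had a log2 fold change of 0.68 (edgeR adjusted p = 0.00105), and no call among the 10 pathway genes changed. With 3 libraries a group, ANKRD1 at 5 counts in all could not be tested at this depth.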

Other observations

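Pathway genes on chromosome 14 were examined together after their values had been seen. SAV1 (50632058 to 50668331, GRCh38), FRMD6 (51489100 to 51730727) and MAP4K5 (50418501 to 50561126) lie close together on chromosome 14, and AJUBA (22971174 to 22982642) lies elsewhere on it. Their log2 fold changes were 0.60, 0.98, 0.43 and 0.49, with edgeR adjusted p of 0.00993, 0.00286, 0.0544 and 0.0314. The medians of the genes within 5 Mb were 0.63, 0.60, 0.69 and 0.61. Fitted with the local-median offset these were -0.034, 0.39, -0.26 and -0.12 and the adjusted p 0.916, 0.249, 0.304 and 0.683, so none of the 4 passed the test. SAV1 is the scaffold of STK3 and STK4, and MAP4K5, which did not pass the test without the offset either, is a kinase of the MAP4K group.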
